A study of Oryza sativa Japonica Group with 10 samples.

Results

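The rows described here are the transcribed regions that the authors counted alongside the annotated rice genes, and that carry a name beginning with putative_nTAR and no gene description. They were chosen by that name alone, and there are 2610 of them among the 33486 rows of the deposited count table, the other 30876 being gene models. The libraries came from rice, cultivar Nipponbare (GSOR-100), a japonica line for which no mutation or added agent is given. The groups were root tips after 6 days (3 libraries) and after 2 days (3 libraries) of hydroponic culture, and mature root after 6 days (2 libraries) and after 2 days (2 libraries). Seedlings were 12 days old at the move to hydroponics, the whole plant was then in the light, and each library pooled 6 plants, so differences between plants are not seen. The tip sample held meristem and elongation zone, and the mature root sample was everything left after the tips had been cut off. Plants sampled after 6 days were older than those sampled after 2 days, so age and time in hydroponics cannot be told apart.

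A transcribed region of this kind is a stretch of genome where sequenced RNA aligns although no gene model is drawn there. Such regions can be missed genes, long non-coding RNAs, pieces of longer untranslated ends, antisense transcripts, transposable elements, or copies of organelle or ribosomal sequence inside the nuclear genome. RNA-seq of selected tissues is a usual way to find them, because many non-coding RNAs of plants are present in few tissues. The deposited table gives each region a number, an exon count, a summed exon length and a read count per library, but no position and no sequence, so none is shown.

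The 2610 regions were short and mostly unspliced. Their summed exon length had a median of 356 bases (quartiles 222 and 538, range 76 to 3394), against a median of 1943 bases for the gene models (quartiles 1176 and 3055). One exon was recorded for 2172 regions (83.2%), against 18.8% of the gene models. A further 263 regions had 2 exons and 175 had 3 or more, so 438 regions had more than 1 exon. The longest was putative_nTAR.13897, with 5 exons over 3394 bases. The most exons, 14, were recorded for putative_nTAR.13456, which was 3010 bases long, followed by 13 exons for putative_nTAR.16663.

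**Figure D1:**
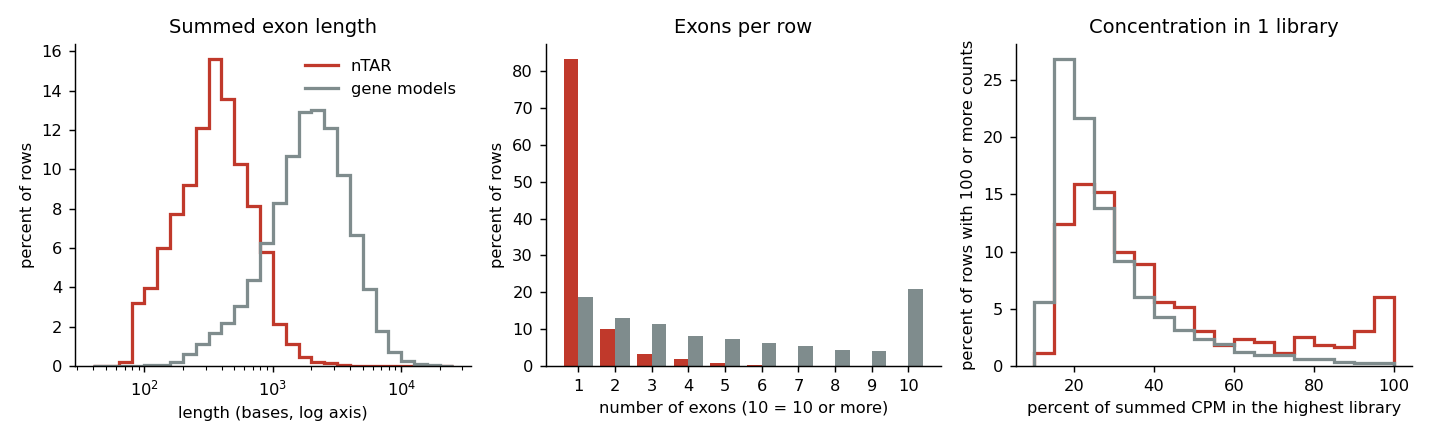
Histograms over regions (nTAR, red) and gene models (grey): summed exon length in bases on a log axis, exons per row, and the percent of a row's summed CPM found in its highest library for rows with 100 or more counts. Regions were shorter (median 356 against 1943 bases), 83.2% had 1 exon, and their right-hand panel has a second rise near 100%.

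Most regions were rare in the counts but not rare per base. Over all 10 libraries a region had a median of 26 counts (quartiles 15 and 62), with a lowest total of 5 and a highest of 6129, while the gene models had a median of 132 counts. The mean level over the 4 groups was a median of 1.21 CPM for regions and 6.07 CPM for gene models, where CPM is a row's count relative to its scaled library total. Per kilobase of exon the order turned round, with a median of 3.83 RPKM for regions and 2.97 RPKM for gene models. The table holds no region with fewer than 5 counts but has gene models down to 1 count, so the 2 medians rest on different lower limits. Reads were found in all 10 libraries for 524 regions (20.1%) and in 1 library only for 27. Counts were concentrated: the 100 most abundant regions held 47.4% of all region counts, whereas the 100 most abundant gene models held 20% of gene model counts.

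Library totals ran from 986907 to 3286439 counts, and 3 counts were worth between 0.809 and 2.69 CPM, so most single regions were measured with large counting error. Only 637 of the 2610 regions (24.4%) had enough counts to be tested, against 18597 of the 30876 gene models (60.2%). Tissue labels were checked with known genes. Of 5 genes of differentiated root, 3 were lower in the tip: the silicon transporters Lsi1 (LOC_Os02g51110) and Lsi2 (LOC_Os03g01700), and the secondary wall cellulose synthase CESA9 (LOC_Os09g25490). Of these 3, only Lsi2 had tissues that did not overlap. CESA9 differed on day 6 (log2 -3.61, edgeR adjusted p = 0.00759) and not on day 2 (log2 0.04, edgeR adjusted p = 0.98). CESA4 (23.5 and 42.9 CPM in tips and mature root) and CESA7 (23 and 53.1 CPM) did not pass. None of 4 genes of dividing cells passed the test. The replication clamp PCNA (LOC_Os02g56130) had a mean of 167 CPM (SD 74.1, 6 tip libraries) next to 192 CPM (SD 139, 4 mature root libraries). The others had higher means in the tip, with libraries that overlapped. In tips and mature root these were 99.1 and 56.3 CPM for the cyclin LOC_Os01g59120-ext and 84.7 and 39.9 CPM for the cyclin LOC_Os06g51110-ext. For the homeobox gene QHB (LOC_Os01g63510) they were 12.5 and 3.9 CPM. Genes of green tissue (63 rows described as chlorophyll A-B binding, photosystem or small Rubisco subunit) took 0.00903% to 0.0243% of counts in tips and 0.324% to 0.674% in mature root, and 30 of their 32 tested rows were lower in the tip.

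Regions took about 1% of all counts, and the share was not shown to differ between tissues. The share was 0.843%, 1.2% and 1.1% in tips on day 6 and 2.03%, 1.48% and 1.01% in tips on day 2, against 0.898% and 0.842% in mature root on day 6 and 1.08% and 0.94% on day 2. The ranges overlapped, and the highest shares were those of 2 of the 3 tip libraries of day 2. The mean was 1.28% ± 0.426 in tips (SD, n = 6) and 0.939% ± 0.101 in mature root (SD, n = 4), a difference of 0.339 percentage points (two-sided exact permutation test over libraries, p = 0.0952, adjusted p = 0.19 over 2 such tests; the smallest p this design allows is 0.00952). Within a day, an exact permutation test of 3 tips against 2 mature root libraries cannot go below p = 0.1. Without root tip day 6 replicate 1 the difference was 0.426 points with p = 0.0317 in the same exact permutation test, and without root tip day 2 replicate 1 it was 0.188 points.

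The number of regions seen was also compared at equal depth. Thinned to the lowest library total, 1191.4, 1353.4 and 1345.3 regions would have at least 1 read in tips on day 6 and 1543, 1379 and 1298 on day 2, against 1323.8 and 1658.2 in mature root on day 6 and 1555 and 1362.4 on day 2. The groups overlapped, with means of 1351.7 in tips and 1474.8 in mature root (two-sided exact permutation test, p = 0.21, adjusted p = 0.21 over 2 tests). At full depth 1337 to 1812 regions had a read in tip libraries and 1720 to 2209 in the deeper mature root libraries.

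The most abundant regions varied strongly between libraries of 1 group. The 3 regions with the most counts, putative_nTAR.9100, putative_nTAR.11460 and putative_nTAR.3091, were high in the same 5 libraries and lower in the other 5. Region putative_nTAR.9100 had 14.6, 657 and 346 CPM in tips on day 6 and 1470, 764 and 4.28 CPM in tips on day 2, against 4.02 and 11.6 CPM in mature root on day 6 and 263 and 44.5 CPM on day 2. Region putative_nTAR.11153, the region with the highest level per length at 1430 RPKM, had 35.4, 513 and 145 CPM in tips on day 6 and 724, 780 and 2.67 CPM on day 2, against 2.23 and 4.05 CPM in mature root on day 6 and 138 and 18.4 CPM on day 2. Each of the 4 groups but mature root on day 6 thus held libraries on both sides. The tissues overlapped in both regions, and the 3 tip libraries of day 2 alone spanned 4.28 to 1470 CPM for putative_nTAR.9100. On average the tip was higher: the log2 fold change of putative_nTAR.9100 over both days was 3.84 (SE 1.26), which did not pass in edgeR (adjusted p = 0.0654) and passed in DESeq2 (adjusted p = 0.0196). In edgeR it also passed without either tip library in which it was low (day 2 replicate 3, day 6 replicate 1; adjusted p 0.0176 and 0.0343), and so did putative_nTAR.11460 and putative_nTAR.3091, which DESeq2 called as well.

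In all, 19 of the 637 tested regions (2.98%) followed this pattern, taken as a Pearson correlation of at least 0.9 over the 10 libraries between their log2(CPM + 1) and that of putative_nTAR.9100. This group was formed after the values had been seen and is given as a description. All 19 had 1 exon, and their lengths ran from 137 to 1437 bases with a median of 344. They took 0.916% and 0.423% of all counts in root tip day 2 replicates 1 and 2, 0.32% and 0.23% in root tip day 6 replicates 2 and 3, and 0.166% in mature root day 2 replicate 1. In the other 5 libraries they took 0.00268% to 0.0213%. In root tip day 2 replicate 1 they made up 45% of all region counts, and in mature root day 6 replicate 1 they made up 0.299%.

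**Figure D2:**
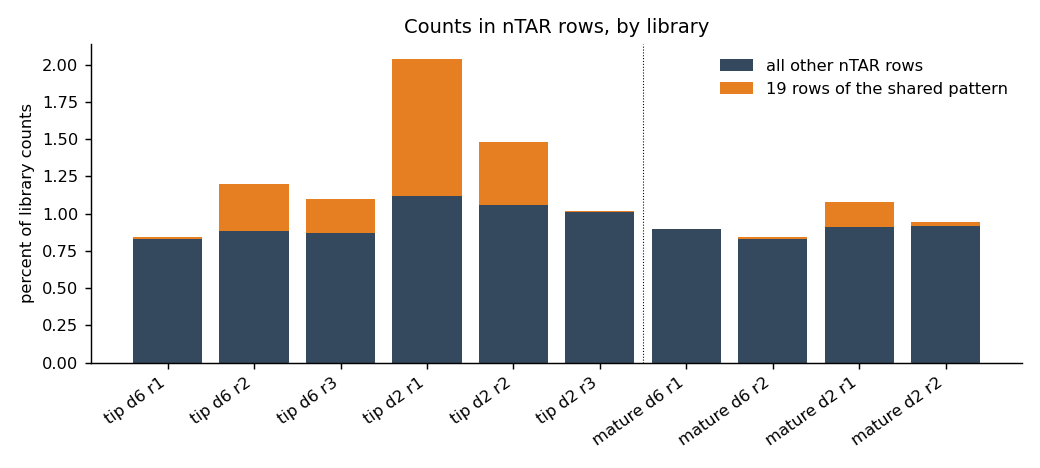
Percent of each library's counts that fell in regions (nTAR rows), with the 19 rows of the shared pattern in orange and all others in dark blue; d is day, r is replicate, and the dotted line parts tips from mature root. Without the orange part the libraries lie between 0.832% and 1.12%.

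Without these 19 regions the share of counts was 0.961% ± 0.116 in tips (SD, n = 6) and 0.89% ± 0.0394 in mature root (SD, n = 4). What was left ran from 0.832% to 1.12% over all 10 libraries. The difference between tissues was then 0.0718 percentage points. The exclusion was chosen after seeing the data, and the 19 regions took on average 0.317% of counts in tips and 0.05% in mature root. Taking them out therefore had to lower the difference, so no conclusion on the tissues is drawn from what was left.

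Annotated genes shared the pattern. It was met by 25 of the 18597 tested gene models (0.134%), and the descriptions of 10 of these 25 (40%) contained the words mitochondrial, NADH, cytochrome c oxidase, ATP synthase or maturase, which stand in 1.35% of all tested gene models. Among them were LOC_Os12g34108, described as ATP synthase protein 9, LOC_Os12g33946, described as cytochrome c oxidase subunit 1, and LOC_Os12g33958-ext, described as a NADH-ubiquinone oxidoreductase subunit; proteins of these names belong to the respiratory chain, and plant mitochondrial genomes encode several of them. LOC_Os12g34108 had 4.62, 44.9 and 28.7 CPM in tips on day 6 and 62.9, 45.4 and 2.14 CPM on day 2, against 0.447 and 1.08 CPM in mature root on day 6 and 14.9 and 4.36 CPM on day 2. The most abundant of the 25 was LOC_Os01g57960-ext, described as an unclassified retrotransposon protein, with 64.7 to 4830 CPM in tips and 48.8 to 1270 CPM in mature root. The words searched for were not set before the values were seen, and they leave out other descriptions among the 25. Examples are LOC_Os04g16722 (uncharacterized protein ycf68) and LOC_Os04g16820-ext (DNA-directed RNA polymerase subunit beta). LOC_Os12g33954-ext, LOC_Os12g34092 and LOC_Os12g34154-ext, all described as ribosomal protein S2, had nearly the same counts (171, 174 and 174 in total). Most of the 10 gene models carry locus numbers from LOC_Os12g33946 to LOC_Os12g34128, so the shares describe rows that may not be independent. Whether organelle transcripts have a part in the counts of the regions of the shared pattern was not tested, since no positions or sequences were used.

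**Figure D3:**
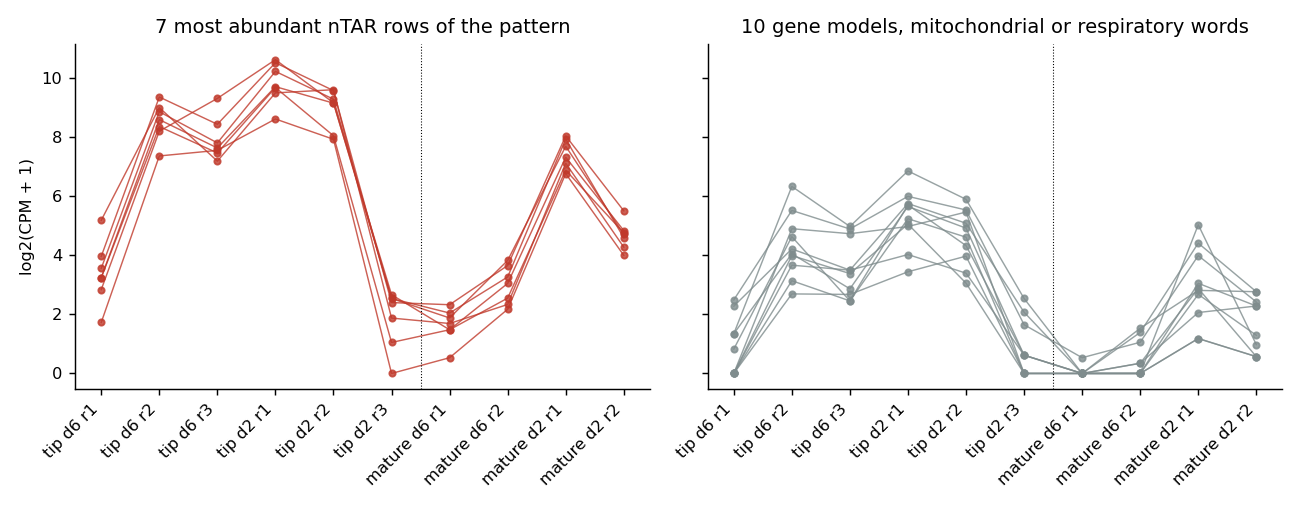
Level of the 7 most abundant regions of the shared pattern (left) and of the 10 gene models that follow it and carry mitochondrial or respiratory words (right), as log2(CPM + 1) in each library; each line is a row, and d and r are day and replicate. Both panels are high in root tip day 6 replicates 2 and 3, root tip day 2 replicates 1 and 2 and mature root day 2 replicate 1.

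Libraries of the same group resembled each other less across regions than across gene models. The Pearson correlation of log2(CPM + 2) across the 637 tested regions averaged 0.528 over the 8 pairs of the same group (0.391 to 0.692), 0.521 over 13 pairs of 1 tissue and both days and 0.423 over 24 pairs of different tissues. Across the 18597 tested gene models the averages were 0.821, 0.801 and 0.695. These are descriptions across rows that are not independent and that differ in depth between the classes. The biological coefficient of variation, the spread between replicates beyond counting, had a median of 0.668 in tested regions and 0.553 in tested gene models. At equal abundance the gap was smaller but in the same direction, with medians of 0.627 and 0.581 at 5 to 20 CPM and of 0.598 and 0.507 at 20 CPM or more.

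Some regions had almost all their reads in 1 library. Of the 637 tested regions 14 (2.2%) had over 80% of their summed CPM in a single library, against 0.823% of the tested gene models. Of the 428 regions with at least 100 counts, tested or not, 54 (12.6%) did, against 1.55% of the 16678 gene models with at least 100 counts. Among rows with 100 to 499 counts the shares were 12.7% of 355 regions and 2.09% of 8598 gene models. These 54 regions were spread over 8 libraries: 9 each in root tip day 6 replicate 1 and mature root day 6 replicate 1, 10 in mature root day 2 replicate 2, 8 in root tip day 2 replicate 2, 7 each in root tip day 6 replicate 2 and root tip day 2 replicate 3, and 2 each in root tip day 6 replicate 3 and mature root day 2 replicate 1. Region putative_nTAR.11803 had 1510 CPM in root tip day 2 replicate 3 and at most 37.7 CPM in the other 9 libraries. Region putative_nTAR.4462 had 884 CPM in mature root day 6 replicate 1 and at most 5.94 CPM elsewhere. It was called lower in the tip over both days (log2 -3.89, edgeR adjusted p = 0.0181), and without that library it was not (log2 -0.8, adjusted p = 0.568). Region putative_nTAR.15941, of 177 bases, had 1246 of its 1247 counts in that same mature root library.

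Of the regions with reads in 1 tissue only, the most abundant were mostly held by a single library. No counts in any mature root library were recorded for 68 of the 2610 regions, and no counts in any tip library for 135. The tissues differ both in the number of libraries and in depth per library, and these numbers were not set beside those of gene models. The 3 regions with the most tip counts in the first set were putative_nTAR.5209, putative_nTAR.16359 and putative_nTAR.4866, with 135, 134 and 126 counts. At least 98.6% of the summed CPM of each was in a single tip library, a different one for each region. In the second set putative_nTAR.15941 and putative_nTAR.14638, with 1247 and 158 counts, also had all but 1 count in a single library each. The third, putative_nTAR.16859, had reads in all 4 mature root libraries.

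The comparison of root tip with mature root over both days asked which regions are tied to the growing tip or to the older root. Of the 637 regions tested, edgeR's quasi-likelihood test called 19 higher and 24 lower in the tip (Benjamini-Hochberg adjusted p under 0.05 over all 19234 rows tested). Over all tested rows 12.2% were called, 3.18% as higher and 9.02% as lower, so the 43 called regions, 6.75% of those tested, were a smaller share than the background, and the share called higher (2.98%) lay near it. The median log2 fold change was 0.28 in the tested regions and 0.05 over all rows tested. Both directions had mostly 1-exon regions, 17 of the 19 higher and 20 of the 24 lower. In bulk samples, fewer cells of a type and less RNA per cell cannot be told apart. DESeq2 called 49 regions higher and 34 lower, against 1214 higher and 2355 lower over all 19234 rows tested. In DESeq2 more regions were thus called higher than lower, while over all rows fewer were. With any 1 library left out edgeR called 15 to 54 regions, with 1 to 3 higher and 12 to 27 lower when it was a mature root library; the 15 came without either mature root day 2 replicate 2 or the day 6 replicate 1 of that tissue.

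**Figure D4:**
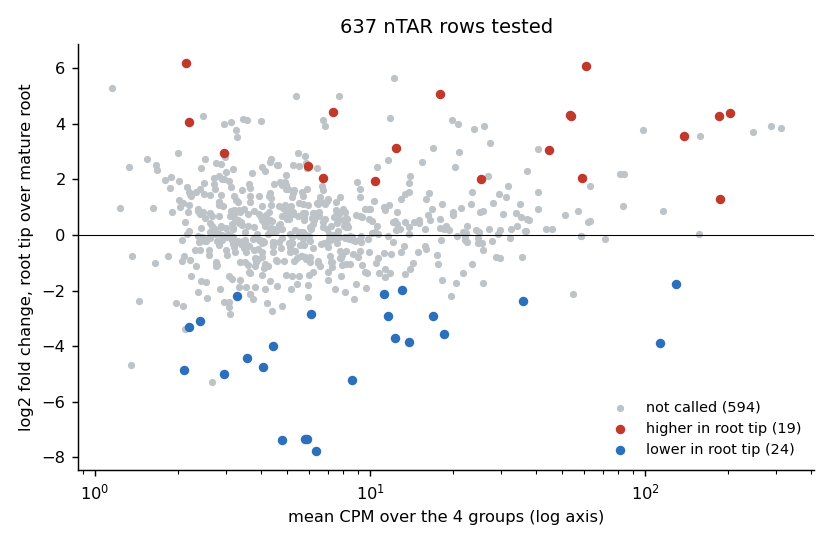
Log2 fold change of root tip over mature root (both days, edgeR) against mean CPM over the 4 groups on a log axis, 1 point per tested region. The 19 called higher (red) and 24 called lower (blue) lie among 594 not called (grey); grey points at the upper right are abundant regions of the shared pattern, whose tissues overlap.

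Most regions lower in the tip had separated tissues. Of the 24, 20 showed no overlap between the 6 tip and the 4 mature root libraries. Over all tested rows, called or not, 7.34% lay below mature root in every tip library, and over the tested regions 4.24%. The 24 had been called on this same difference, so frequent separation among them follows in part from how they were chosen. Their log2 fold changes ran from -7.77 to -1.78. Of the 43 called regions, 9 were called under all 17 alternatives run for this comparison, 8 of them lower in the tip (putative_nTAR.16859, putative_nTAR.1081, putative_nTAR.4351, putative_nTAR.7677, putative_nTAR.2331, putative_nTAR.10359, putative_nTAR.114 and putative_nTAR.13897) and 1 higher (putative_nTAR.15495). The share of counts in green-tissue genes was lower in the tip too, and its part in these values was not tested.

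The longest region, putative_nTAR.13897, was the most evenly measured of them. It had 73.1, 51.2 and 58.4 CPM in tips on day 6 and 59.3, 45.4 and 63.6 CPM on day 2, against 205 and 215 CPM in mature root on day 6 and 189 and 194 CPM on day 2. The tissues did not overlap, and replicates lay close together in both. The mean was 58.5 ± 9.64 CPM in tips (SD, n = 6) and 201 ± 11.7 CPM in the 4 mature root libraries (SD). The log2 fold change was -1.78 with an SE of 0.31 (adjusted p = 0.00373 in edgeR's quasi-likelihood test). On day 6 alone it passed as well (log2 -1.79, adjusted p = 0.0303), and on day 2 alone it did not (log2 -1.77, adjusted p = 0.0706).

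Several 1-exon regions were nearly absent from the tip. Region putative_nTAR.16859, of 498 bases, had 0 counts in all 6 tip libraries, against 3.57 and 25.6 CPM in mature root on day 6 and 6.67 and 15 CPM on day 2. With a floor of 3 counts over the tip libraries it was at least 48.3-fold lower in the tip (adjusted p = 0.00498, edgeR). Region putative_nTAR.1081, named here after its values were seen, was likewise at 0 in all tips, against 8.49 and 10.5 CPM in mature root on day 6 and 4.76 and 14.5 CPM on day 2, which is at least 32.1-fold lower in the tip. Region putative_nTAR.10359 had 1.54, 1.56 and 5.84 CPM in tips on day 6 and 7.18, 0.733 and 0.535 CPM on day 2, against 33 and 42.9 CPM in mature root on day 6 and 21.3 and 39.7 CPM on day 2 (log2 fold change -3.57, SE 0.66, adjusted p = 0.00513, edgeR). Tips and mature root did not overlap in any of these 3 regions.

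The smallest p among regions belonged to putative_nTAR.2331, a 1-exon region of 1949 bases. It had 2.31, 3.13 and 2.69 CPM in tips on day 6 and 0.898, 1.47 and 0.535 CPM on day 2, against 19.7 and 38.6 CPM in mature root on day 6 and 10.5 and 22.3 CPM on day 2 (log2 fold change -3.71, SE 0.51, edgeR adjusted p = 0.00106). It passed on day 6 (adjusted p = 0.0147) and on day 2 (adjusted p = 0.0299). Region putative_nTAR.7677 also passed on both days, with means of 1.67 ± 0.993 CPM in tips (SD, n = 6) and 26 ± 17.3 CPM in the 4 mature root libraries (SD). Region putative_nTAR.114 passed on day 2 (adjusted p = 0.038) and not on day 6 (adjusted p = 0.0656), with 3.3 ± 1.57 CPM in tips and 30.4 ± 23.6 CPM in mature root. Region putative_nTAR.4351, with reads in 2 of 6 tip libraries, had 1.39 ± 2.16 CPM in tips and 15.8 ± 7.44 CPM in mature root and passed on day 2 only, which does not show that its tissue difference changed between days (interaction not called in edgeR).

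Regions putative_nTAR.2328 and putative_nTAR.2329 carried almost the same counts and cannot be counted as 2 findings. Both had 0 counts in every tip library, and putative_nTAR.2328 had 3.13 and 6.2 CPM in mature root on day 6 and 1.91 and 35.8 CPM on day 2. They differ by 2 counts in total over the 10 libraries. Both lost their call without mature root day 2 replicate 2, with adjusted p of 0.0892 for putative_nTAR.2328 and 0.107 for putative_nTAR.2329 in edgeR.

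More widely, regions with consecutive numbers could hold the same reads. Among the 739 pairs of regions whose numbers differ by 1, 4 pairs had identical counts in all 10 libraries, and 15 pairs (2.03%) differed by at most 10% of the larger total; no such pair was found at number differences of 2 to 5 (415 to 554 pairs each). Regions putative_nTAR.7395 and putative_nTAR.7396 are the largest of these, with 743 and 740 counts. Of the 26 consecutive pairs with at least 100 counts on both sides, 11 had a correlation of 0.9 or more over the 10 libraries (median 0.75), and the median was 0.23 at a difference of 2 and 0.01 at a difference of 3. Other called regions with consecutive numbers, such as putative_nTAR.290 and putative_nTAR.291, were not among these near-identical pairs. The labels and file do not say what the numbering stands for.

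Only 7 of the 19 regions called higher in the tip had tissues that did not overlap (1.57% of tested regions lay above mature root in every tip library, called or not, against 3.87% over all tested rows). Their log2 fold changes ran from 1.3 to 6.18. Of the 19, 4 belonged to the shared pattern described above, so they were low in root tip day 6 replicate 1 and root tip day 2 replicate 3. Some others lay just under the limit of that pattern. These include putative_nTAR.16205 (correlation 0.9 after rounding, 1.54 and 0 CPM in those 2 libraries) and putative_nTAR.6259 (0.86, with 2.31 and 7.49 CPM). At a limit of 0.8 the pattern would hold 39 tested regions. The region putative_nTAR.11153 (log2 4.41, edgeR adjusted p = 0.0357) lost its call without either of the tip libraries of day 2 in which it was high, or root tip day 6 replicate 2 (edgeR adjusted p 0.0596 to 0.0669). It also lost the call without any 1 of the mature root libraries, where calls higher in the tip became fewer over all tested rows too. Its log2 fold change was 3.73 to 5.44 in these fits. The median log2 fold change of the 19 pattern regions was 3.84 with tissues that overlapped. In edgeR 17 of the 19 had an unadjusted p under 0.05 and 15 were not called; of those 15, DESeq2 called at least putative_nTAR.9100, putative_nTAR.11460, putative_nTAR.3091 and putative_nTAR.13668, with adjusted p from 0.0196 to 0.0427.

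The rule for naming (at least 10 CPM in the tip and no overlap) took 4 regions. Region putative_nTAR.17405 had 13.9, 14.5 and 13.9 CPM in tips on day 6 and 30.5, 18.3 and 8.56 CPM on day 2, against 2.68 and 5.67 CPM in mature root on day 6 and 4.45 and 3.87 CPM on day 2. All 6 tip libraries lay above all 4 mature root libraries, with a log2 fold change of 1.94 (SE 0.51, edgeR adjusted p = 0.0272). Region putative_nTAR.2482 had 41 ± 30 CPM in tips (SD, n = 6) and 9.51 ± 2.68 CPM in the 4 mature root libraries (SD). The 5-exon region putative_nTAR.16196, of 1851 bases, had 120, 318 and 38.6 CPM in tips on day 6 and 30.5, 44.7 and 41.7 CPM on day 2, against 17 and 14.6 CPM in mature root on day 6 and 29.2 and 16.5 CPM on day 2. It passed on day 6 (log2 3.33, adjusted p = 0.0344) and not on day 2 (log2 0.77, adjusted p = 0.648, edgeR). The fourth, putative_nTAR.11803, rested on a single library: its tips without root tip day 2 replicate 3 had 16.2 to 37.7 CPM against 5.4 to 11.1 CPM in mature root, and without that library its log2 fold change was 1.47 and no longer passed (edgeR adjusted p = 0.0695), against 3.57 with all libraries. Without a given mature root library, any of the 4, each of these 4 regions lost its call. Those fits leave 1 library in a group, and calls higher in the tip became fewer over all tested rows too. The loss is therefore not particular to these regions. Their log2 fold changes moved little in these fits, to between 1.72 and 2.26 for putative_nTAR.17405, 1.88 and 2.27 for putative_nTAR.16196, and 1.89 and 2.15 for putative_nTAR.2482. All but putative_nTAR.17405 also lost it without root tip day 6 replicate 2. Root tip day 2 replicate 1 ended the calls of putative_nTAR.17405 and putative_nTAR.2482 when left out, root tip day 2 replicate 2 that of putative_nTAR.16196, root tip day 6 replicate 1 those of putative_nTAR.2482 and putative_nTAR.11803, and root tip day 6 replicate 3 that of putative_nTAR.11803.

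**Figure D5:**
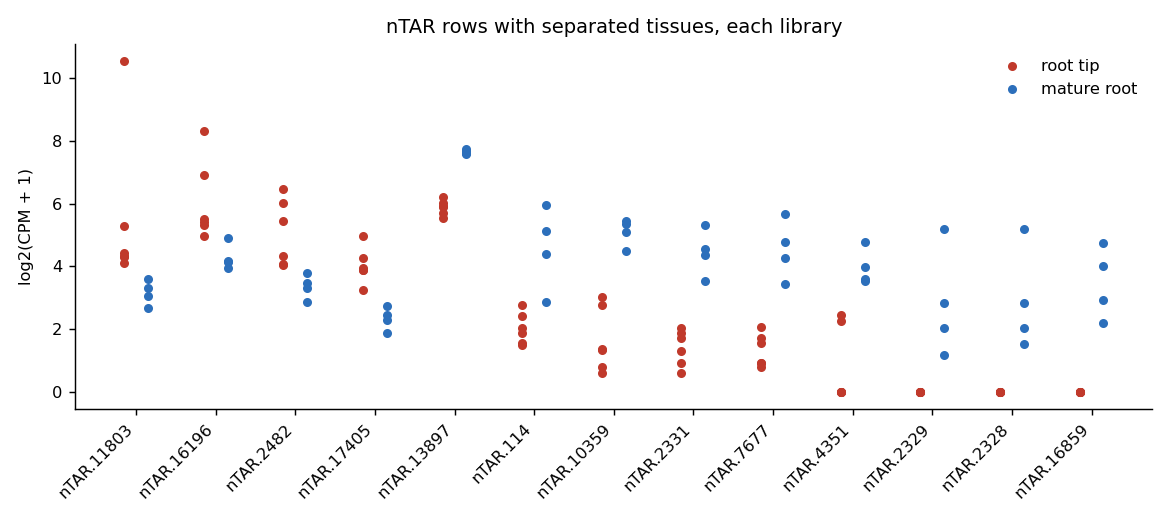
Level of 13 regions called between the tissues without overlap, as log2(CPM + 1), with each point a library (6 root tip in red, 4 mature root in blue). The 4 regions at the left were higher in root tip and the 9 others lower, and putative_nTAR.11803 has a single tip library far above its other 5.

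Region putative_nTAR.15495, of 174 bases and singled out after its values were seen, was weak but steady. It had 6.93, 2.74 and 2.25 CPM in tips on day 6 and 6.29, 5.86 and 1.6 CPM on day 2, against 0 counts in all 4 mature root libraries. From 39 tip counts and a floor of 3 counts over the mature root libraries, it was at least 13.9-fold higher in the tip (edgeR adjusted p = 0.00965). It was called under every one of 17 alternatives. Region putative_nTAR.7497, the most abundant region outside the shared pattern, had 367, 346 and 323 CPM in tips on day 6 and 186, 120 and 274 CPM on day 2, against 99.6 and 133 CPM in mature root on day 6 and 94.3 and 94.9 CPM on day 2. Its lowest tip library lay below its highest mature root library, and the log2 fold change was 1.3 (SE 0.32, edgeR adjusted p = 0.0221). It lost the call with any 1 of the 4 mature root libraries left out, while the log2 fold change stayed between 1.19 and 1.4. Calls higher in the tip became fewer over all tested rows too in those fits.

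Few regions with 3 or more exons were called between tissues. Of the 89 tested regions with 3 or more exons 2 were called (2.25%), against 11% of the tested gene models with 3 or more exons, and of the 483 with 1 exon 37 were called (7.66%), against 19.2% of 1-exon gene models. Regions with 2 exons lay nearer to the 1-exon ones, with 4 of 65 called (6.15%). The 2 called with 3 or more exons were putative_nTAR.13897 and putative_nTAR.16196, both of 5 exons. The 14-exon region putative_nTAR.13456 had 49.3 ± 19.3 CPM in tips (SD, n = 6) and 42.4 ± 9.05 CPM in the 4 mature root libraries (SD), with a log2 fold change of 0.23 (SE 0.4, edgeR adjusted p = 0.743). The 13-exon region putative_nTAR.16663 had 44.9 ± 23 and 29.7 ± 11.5 CPM, and the 7-exon region putative_nTAR.15062 had 20.3 ± 16.6 and 12.2 ± 6.75 CPM, in tips and mature root in that order. The 12-exon region putative_nTAR.11748 was rare in both, with 4.45 ± 1.56 CPM in tips and 4.19 ± 2.65 CPM in mature root. None of these 4 passed the test.

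The share of tested regions that were called was larger in the more abundant classes. Of the tested regions with a mean of 20 CPM or more, 13 of 90 (14.4%) were called, near the 13.8% of gene models of that level. At 5 to 20 CPM the shares were 6.82% of regions and 11% of gene models, and at 2 to 5 CPM 4.53% and 10.8%. Under 2 CPM 0 of 18 tested regions were called, against 16.1% of 118 tested gene models. In the top class 10 of the 13 were higher in the tip, and in the 2 classes from 2 to 20 CPM together 9 were higher and 21 lower. The classes rest on mean CPM, so a region can enter the top class through the few libraries in which it is high. Its called regions include putative_nTAR.11153, putative_nTAR.3094 and putative_nTAR.6620 of the shared pattern. They also include putative_nTAR.11803, putative_nTAR.16205 and putative_nTAR.4462, each with over 80% of its summed CPM in 1 library. These shares are descriptions of unequal sets and were not tested against each other.

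Taken on each day by itself, the tissue comparison named fewer regions. On day 6, 7 regions were higher and 15 lower in the tip (3.45% of tested regions, with 7.08% of all tested rows called, 1.33% as higher and 5.75% as lower). On day 2, none was higher and 4 were lower (0.628%, with 1.15% of all tested rows called, 0.0832% as higher and 1.07% as lower). On that day 83 regions had an unadjusted p under 0.05. DESeq2 called 22 regions on day 2, with 237 higher and 797 lower over all rows. The 4 called by edgeR were putative_nTAR.2331, putative_nTAR.7677, putative_nTAR.114 and putative_nTAR.4351. All 43 regions called over both days had the same sign on either day, which being called on the mean of both days favours. Left-out libraries moved these counts to between 0 and 29 on day 6 and between 0 and 18 on day 2. The 0 on day 6 came without mature root day 6 replicate 1, and without root tip day 6 replicate 2 the count was 2. On day 2 it was 0 without any 1 of the 3 tip libraries of day 2, without mature root day 2 replicate 2, and without any library of mature root on day 6, and 18 without mature root day 2 replicate 1.

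No region was called between day 6 and day 2 in either tissue by edgeR, and none of the 19234 rows tested was (0% called). In the tip 84 of the 637 regions had an unadjusted p under 0.05 and DESeq2 called 2. In mature root the numbers were 71 and 13. Over all rows DESeq2 called 61 higher and 69 lower on day 6 in the tip, and 259 and 116 in mature root. When the tissue contrast on day 6 was set against that on day 2, 72 regions had an unadjusted p under 0.05. For this difference edgeR called none (0% of all rows) and DESeq2 called 5, with 31 higher and 63 lower over all rows. Region putative_nTAR.14900, of 974 bases, had the smallest p in mature root and for the difference between days. It had 11.5, 13.7 and 13 CPM in tips on day 6 and 7.18, 6.6 and 2.67 CPM on day 2, and 65.2 and 62 CPM in mature root on day 6, against 1.59 and 0.484 CPM on day 2. The mature root libraries of the days did not overlap, with a log2 fold change of 5.79 that did not pass (adjusted p = 0.183, edgeR); DESeq2 called it.

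The next regions by p included several high in a single library. The mature root value of putative_nTAR.4462 (log2 6.92, edgeR adjusted p = 0.25, DESeq2 adjusted p = 8.33e-05) came from the library of 884 CPM named above. In the tip, putative_nTAR.16664 had 0.77, 0 and 0.449 CPM on day 6, against 6.29, 46.2 and 2.14 CPM on day 2 (log2 -5.49, edgeR adjusted p = 0.425), and putative_nTAR.11803 followed with log2 -4.85. For the difference between days, putative_nTAR.1090 had 1.54, 5.08 and 4.04 CPM in tips on day 6 and 18, 39.6 and 11.8 CPM on day 2, against 72.4 and 24.8 CPM in mature root on day 6 and 6.67 and 17.4 CPM on day 2. Its tip libraries were lower on day 6 and its mature root libraries higher, without overlap in either tissue, and the difference (log2 -4.64) did not pass in edgeR (adjusted p = 0.513) but passed in DESeq2 (adjusted p = 0.0222).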

How the data were processed

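Per the labels' protocols, oligo-dT selected RNA was fragmented, fragments of about 200 bp were isolated and libraries were amplified by PCR; no molecular identifiers are mentioned, so intervals and floors cover counting error only. The authors deposited whole-number counts per row, not normalized per the file headers and values, with exon number and summed exon length. Bowtie, SAMtools 0.1.12a, Cufflinks 1.0.3 and TopHat 1.3.1 are listed without roles in the submitters' processing notes. The build, the counter and its use of strand were not given in the sources used here. Reads of a region and of an overlapping antisense gene therefore cannot be told apart.

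Counts were fitted over all 33486 rows in R 4.3.3 with edgeR 4.0.16 (filterByExpr with minimum count 10 and total 15, TMM, 1 mean per group, quasi-likelihood test, Benjamini-Hochberg over 19234 tested rows). CPM is TMM-scaled, and RPKM is CPM per kilobase of summed exons. Single values per library used exact permutation tests (SciPy 1.17.1). Alternatives were DESeq2 1.42.0 (size factors, and its test), library totals, TMM without regions, other filters, a replicate block, only the groups compared, and leaving out each library. The fit was tested on simulated counts. Named regions were, by rule, the 8 largest called changes per direction without overlap and with at least 10 CPM (4 qualified as higher), the 6 highest in CPM, 4 highest in RPKM, 3 longest, 3 with most exons, 3 with most counts and 0 in the other tissue, and 2 with the smallest p per time contrast. The members and lists were chosen with earlier results of these data known. Per the labels, replicates are separate pools of plants.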

Additional observations from a re-analysis of the deposited data

Results flagged for a closer look

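A library was set apart when its gap to the nearest other library of its tissue took an unusually large part of the whole range (Dixon's criterion at 95%, 6 tip or 4 mature root libraries). Of 72 sets checked, 19 met it, where the criterion gives about 5% for normally spread values that were not selected. The regions that met it had been named for their values in these data, so more than 5% was likely from the start. The regions of the shared pattern are also not independent of each other. Mature root day 2 replicate 1 stood above the other mature root libraries in 6 regions of the shared pattern, with 263 CPM for putative_nTAR.9100, 206 for putative_nTAR.11460, 244 for putative_nTAR.3091, 138 for putative_nTAR.11153, 159 for putative_nTAR.13668 and 108 for putative_nTAR.10049. It also stood out in putative_nTAR.16196 with 29.2 CPM, next to 17 CPM.

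Single tip libraries stood out in 6 regions. These were root tip day 2 replicate 3 in putative_nTAR.11803 (1510 CPM), root tip day 6 replicate 2 in putative_nTAR.16196 (318 CPM) and putative_nTAR.5209 (52.4 CPM), root tip day 6 replicate 1 in putative_nTAR.16359 (102 CPM), and root tip day 2 replicate 2 in putative_nTAR.4866 (90.9 CPM) and putative_nTAR.16664 (46.2 CPM).

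Single mature root libraries stood out in 6 further regions. Mature root day 6 replicate 1 had 556 CPM for putative_nTAR.15941 and 884 CPM for putative_nTAR.4462. Mature root day 2 replicate 2 had 35.8 CPM for both putative_nTAR.2328 and putative_nTAR.2329 and 76 CPM for putative_nTAR.14638. Mature root day 6 replicate 2 had 133 CPM for putative_nTAR.7497, next to 99.6 CPM.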

How the results depend on the processing

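The 43 regions called between tissues over both days became 221 without a filter on low counts, 83 with DESeq2 and 23 with the replicate block, and 15 to 54 with 1 library left out; 42, 42, 18 and 12 to 35 of these were among the 43. Calls higher in the tip were 44.2% of the 43, 54.8% without a filter and 59% with DESeq2. Over all tested rows the calls were 611 higher and 1734 lower, 1324 and 2739 without a filter, and 1214 and 2355 with DESeq2. The part called higher thus rose over all rows too. Without mature root day 6 replicate 2, which leaves 1 library in that group, it was smaller in regions and over all rows alike. Without the 19 regions of the shared pattern, an alternative chosen after seeing the data, 39 were called. On day 2 the 4 calls became 114 without a filter, 22 with DESeq2, 0 with the replicate block, 0 with only the compared groups, and 0 to 18 with 1 library left out. On day 6 the 22 became 185, 58, 7 and 6 in the same order, and 0 to 29. Between days the 0 calls in the tip became 111 without a filter and 2 with DESeq2. In mature root the 0 became 72 and 13, and 0 to 5 with 1 library left out. For the difference between days the 0 became 44 and 5, and 0 to 1. Rows left out by the filter have few counts, and the cause of the other changes was not tested. DESeq2 size factors, library totals and TMM without regions gave 44, 43 and 43 over both days. The share of counts differed by 0.339 points, 0.188 to 0.426 with 1 library left out. It differed by 0.26 points without regions held over 50% by 1 library (added after seeing the data; exact permutation p = 0.324). The number of regions at equal depth differed by -123, or -174 to -62.1 with 1 left out, and by -338 at full depth (exact permutation p = 0.0476), where mature root is deeper. For putative_nTAR.13456 the log2 fold change turned to -0.01 without root tip day 6 replicate 2 (-0.01 to 0.39 with 1 library left out). For putative_nTAR.11748 it turned to -0.01 without that same tip library, -0.1 without mature root day 2 replicate 2 and -0.08 without the day 6 replicate 2 of mature root (-0.1 to 0.6 with 1 left out). Same-numbered libraries did not deviate together (13 pairs, correlations from -0.045 to 0.023), so the block is given only as a number shared by label; it called 4 regions higher and 3 lower on day 6. In the fits without a mature root library, the lone library left in that group is assumed to vary like the others, and the filter let 1234 to 1296 regions be tested. Depth limits the rest, as only 24.4% of the 2610 regions were tested.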
